A study of Mus musculus with 17 samples.

Results

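Levels of 7 regulators of mineralization were described across the first days after myocardial infarction (MI) in sorted mouse cardiac fibroblasts (CFs). The genes were *Enpp1*, *Ank*, *Alpl*, *Slc20a1*, *Mgp*, *Spp1* and *Ahsg*, found by symbol among 31053 genes listed. They had been chosen with their levels by day in these libraries already known, so those levels are given as a description and carry no test. The study followed CFs from 1 to 6 days post-infarction (dpi) and placed a transition of activated CFs into a reparative state at 3 to 5 dpi. Bulk RNA was counted from transcript 3′ ends in 17 libraries. There were 4 libraries of 3 dpi, a single one of 5 dpi and 3 for every other day. All groups were C57BL/6 mice of genotype Collagen1a1-GFP+, aged 8 to 10 weeks, whose left anterior descending coronary artery had been ligated. GFP was driven by the collagen 1a1 promoter and so marked collagen-producing cells, and the sort kept GFP+ cells negative for CD31, an endothelial protein, and CD45, a leukocyte protein. No uninfarcted group was analysed here, and the single 5 dpi library gives no spread of its own.

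Soft tissues stay free of mineral because calcium phosphate deposition is held back in the extracellular space. ENPP1 makes pyrophosphate, an inhibitor of crystal growth, from extracellular ATP, ANK carries pyrophosphate and nucleotides out of the cell, and tissue-nonspecific alkaline phosphatase, encoded by *Alpl*, cleaves pyrophosphate to phosphate. SLC20A1 takes up phosphate, matrix Gla protein (MGP) and osteopontin (*Spp1*) act on mineral in the matrix, and fetuin-A (*Ahsg*), a plasma protein made mainly by the liver, binds calcium phosphate in fluid. In the injured heart osteopontin is also known as a matrix and cytokine-like product of fibroblasts and macrophages.

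Total counts ran from 8021815 to 22029938 per library, and 3 counts, taken as the limit that a count of 0 allows, corresponded to 0.136 to 0.374 CPM (counts scaled to a common library total), counting error only. Fibroblast markers, among them *Col1a1*, *Pdgfra* and *Dcn*, summed to 12200 to 38700 CPM, and all 8 were detected in every library. The 7 endothelial markers summed to 66.0 CPM in replicate 3 of 3 dpi and to 3.09 to 21.7 in the other libraries. The 8 leukocyte markers summed to 33.8 and 47.6 CPM in replicates 3 and 4 of 3 dpi, 20.8 at 5 dpi and 0.59 to 10.6 in the other libraries. Further lists also moved with the day. The 5 erythroid markers summed to 2.13 to 30.2 CPM at 3 dpi and 272 to 2690 at 4 dpi, and stood at 19.5 to 506 on the other days. The 8 cardiomyocyte markers summed to 10.6 to 14.0 CPM at 3 dpi, 35.9 to 68.8 at 4 dpi and 84.7 to 190 at 6 dpi, and stood at 14.4 to 38.6 at 1, 2 and 5 dpi. The part of these cell types in the results was not tested. Counts of 4 Y-linked genes exceeded those of *Xist* in 2 of 3 libraries at 1 dpi, 3 of 3 at 2 dpi, 4 of 4 at 3 dpi, 0 of 3 at 4 dpi, the 1 library at 5 dpi and 0 of 3 at 6 dpi, so that the sex of the mice and the day cannot be told apart in steps from 3 to 4 dpi or to 6 dpi. The 3 dpi libraries were also named by another scheme than the rest. In bulk samples fewer cells of a type and less RNA per cell cannot be told apart.

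Sequences before the starts of *Spp1*, *Ahsg* and *Fetub* are shown because *Spp1* had the widest range among the members and because *Ahsg* and its neighbour *Fetub*, which encodes fetuin-B, ran alike. They are the bases upstream of the RefSeq start on GRCm38.p6, 5′ to 3′ on the plus strand of each gene, without any base in a GENCODE exon. The *Ahsg* window lies inside the longer span that GENCODE gives this gene. Capitals mark matches, on either strand, to TATAAA, the TATA box, to TGANTCA, known to be bound by AP-1, to AACCACA, known to be bound by RUNX factors, and to TTNNGCAA, known to be bound by C/EBP factors.
Spp1 chr5:104434861-104435110: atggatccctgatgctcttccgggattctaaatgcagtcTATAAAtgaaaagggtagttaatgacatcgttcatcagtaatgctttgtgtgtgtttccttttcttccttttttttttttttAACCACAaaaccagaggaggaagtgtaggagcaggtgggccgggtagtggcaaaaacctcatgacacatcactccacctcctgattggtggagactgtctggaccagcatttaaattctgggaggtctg
Ahsg chr16:22891765-22892014: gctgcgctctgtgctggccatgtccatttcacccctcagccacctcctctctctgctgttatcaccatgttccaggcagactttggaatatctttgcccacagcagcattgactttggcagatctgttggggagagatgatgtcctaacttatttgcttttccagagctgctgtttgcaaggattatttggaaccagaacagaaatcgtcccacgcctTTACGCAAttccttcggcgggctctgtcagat
Fetub chr16:22918132-22918333: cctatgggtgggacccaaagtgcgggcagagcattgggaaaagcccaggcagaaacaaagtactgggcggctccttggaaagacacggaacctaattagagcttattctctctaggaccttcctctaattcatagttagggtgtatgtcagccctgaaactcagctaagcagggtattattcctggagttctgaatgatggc
The *Spp1* window, one of 2 for this gene in the RefSeq table, held TATAAA at position -211 and AACCACA at position -129 from the RefSeq start. The *Ahsg* window held a TTNNGCAA match at -32, and none of the 4 strings was found in the 202 bases shown for *Fetub*. Of 32851 RefSeq windows of 250 bases, 12.4% held TATAAA, 6.75% TGANTCA, 4.4% AACCACA and 9.56% TTNNGCAA, so each string is common and a match is a description only.

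Among the genes of pyrophosphate, *Enpp1* had its lowest levels at 1 dpi and its highest at 4 and 5 dpi. The mean of *Alpl* moved the other way from 1 to 3 dpi only. From 4 to 6 dpi both means fell (log2 differences -0.53 for *Enpp1* and -0.43 for *Alpl*), with overlapping libraries. Levels are log2 CPM, with library sizes normalized by TMM and 2 as the prior count, in replicate order within each day. For *Enpp1* (ENSMUSG00000037370, 24637914 to 24712159 on the minus strand of chromosome 10) they were 4.75, 4.74 and 4.99 at 1 dpi and 5.45, 5.17 and 5.64 at 2 dpi. At 3 dpi *Enpp1* stood at 6.49, 5.63, 6.24 and 6.47, at 4 dpi at 6.53, 6.81 and 5.94, at 5 dpi at 6.87 and at 6 dpi at 6.08, 5.49 and 6.10. All 3 libraries of 1 dpi lay below all others, and 3, 4 and 6 dpi overlapped each other, with the 5 dpi library highest. The mean level was 4.83 ± 0.14 (SD, n = 3) at 1 dpi and 6.43 ± 0.45 (n = 3) at 4 dpi, a difference of 1.60 or 3.03-fold.

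For *Alpl* (ENSMUSG00000028766, 137741733 to 137796384 on the minus strand of chromosome 4) the levels were 5.56, 5.46 and 6.10 at 1 dpi and 4.94, 5.24 and 4.44 at 2 dpi. From then on *Alpl* stood at 3.46, 3.80, 3.40 and 3.67 at 3 dpi, 3.84, 4.19 and 3.17 at 4 dpi, 3.65 at 5 dpi and 2.65, 3.66 and 3.59 at 6 dpi. The 3 groups formed by 1 dpi, 2 dpi and the later days did not overlap, and the later days could not be ordered beyond their spread. The mean level was 5.70 ± 0.34 (SD, n = 3) at 1 dpi and 3.30 ± 0.57 (n = 3) at 6 dpi, a difference of 2.40 or 5.29-fold.

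The same counts were also set against each other within a library, as a ratio that no scaling between libraries affects. It compares the gene of the enzyme that makes pyrophosphate with that of the enzyme that removes it. Being formed from the levels above, it is no separate support for them. *Enpp1* counts divided by *Alpl* counts gave 0.571, 0.605 and 0.463 at 1 dpi and 1.43, 0.955 and 2.30 at 2 dpi. The ratio was 8.25, 3.59, 7.26 and 7.07 at 3 dpi, 6.48, 6.20 and 6.89 at 4 dpi, 9.41 at 5 dpi and 11, 3.58 and 5.76 at 6 dpi. Every 1 dpi library lay below every 2 dpi library, and every library from 3 dpi on lay above both. On the log2 scale the mean ratio was -0.88 ± 0.20 (SD, n = 3) at 1 dpi and 2.70 ± 0.08 (n = 3) at 4 dpi. It was 2.64 ± 0.54 (n = 4) at 3 dpi and 2.61 ± 0.82 (n = 3) at 6 dpi. Transcript ratios give no measure of the enzymes' activity, and only the change of the ratio between days is read here.

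**Figure D1:**
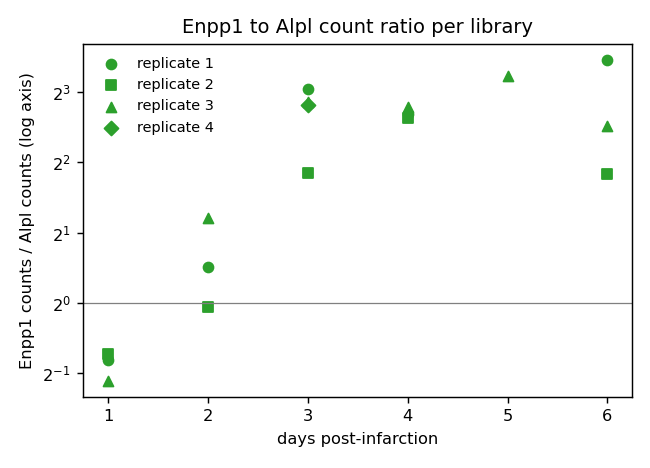
Ratio of *Enpp1* to *Alpl* counts in each of the 17 libraries (y axis, log scale, no unit) against days post-infarction (x axis); each symbol is a library and its shape the replicate number. The 1 dpi libraries lie at 0.463 to 0.605, those of 2 dpi at 0.955 to 2.30, and all from 3 dpi on at 3.58 to 11.

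*Ank* (ENSMUSG00000022265, 27466677 to 27594909 on the plus strand of chromosome 15), the pyrophosphate and nucleotide exporter, varied least among the members. Its levels were 4.42, 4.72 and 5.20 at 1 dpi, 5.28, 5.05 and 5.02 at 2 dpi and 5.61, 5.25, 5.56 and 5.31 at 3 dpi. They were 4.95, 5.41 and 5.14 at 4 dpi, 5.48 at 5 dpi and 4.63, 4.26 and 4.97 at 6 dpi. Days next to each other in the order of means overlapped, whereas 6 dpi lay below 2, 3 and 5 dpi and 1 dpi lay below 3 and 5 dpi. The mean level at 3 dpi exceeded that at 6 dpi by 0.81 (1.75-fold). *Otulin*, on the opposite strand, overlaps *Ank* and held 5071 counts over all libraries, and whether the counting used strand is not given in the sources used here.

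*Slc20a1* (ENSMUSG00000027397, 129198764 to 129211616 on the plus strand of chromosome 2), the phosphate importer, was higher at 3 to 5 dpi than at 1 dpi. The levels were 3.56, 4.12 and 3.28 at 1 dpi, 4.67, 3.15 and 3.59 at 2 dpi and 5.32, 4.13, 5.11 and 5.39 at 3 dpi. At 4 dpi they were 4.77, 4.89 and 4.89, at 5 dpi 5.52 and at 6 dpi 4.39, 2.87 and 4.41. All 6 dpi libraries lay below all 4 dpi libraries, whereas 2 dpi overlapped 3 dpi through replicate 1 of 2 dpi and replicate 2 of 3 dpi. The mean level at 3 dpi exceeded that at 1 dpi by 1.33 (2.52-fold), and it did so by 1.07 without the 2 libraries of 3 dpi with the most macrophage marker counts.

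*Mgp* (ENSMUSG00000030218, 136872435 to 136875823 on the minus strand of chromosome 6), whose vitamin K-dependent product holds back calcification of arteries and cartilage, had the highest summed count of all genes listed. It held 0.505% to 1.07% of a library's counts at 3 dpi and up to 2.88% at 2 dpi. The levels were 12.97, 13.73 and 14.23 at 1 dpi, 14.17, 14.82 and 14.04 at 2 dpi and 13.28, 12.49, 13.16 and 12.81 at 3 dpi. They then stood at 14.05, 13.95 and 13.39 at 4 dpi, 13.33 at 5 dpi and 14.36, 14.80 and 14.43 at 6 dpi. All 4 libraries of 3 dpi lay below all of 2, 4 and 6 dpi, and 6 dpi lay above 3, 4 and 5 dpi. The mean level was 12.93 ± 0.36 (SD, n = 4) at 3 dpi and 14.53 ± 0.24 (n = 3) at 6 dpi, a difference of 1.59 or 3.02-fold. Mural cells of vessels are also known to make *Mgp*, and the 7 mural markers, all detected in every library, summed to 63.5 to 109 CPM at 1 dpi, 76.4 to 94.0 at 2 dpi and 135 to 171 at 3 dpi. They summed to 118 to 224 at 4 dpi, 241 at 5 dpi and 188 to 206 at 6 dpi. Their part in the *Mgp* levels was not tested.

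*Spp1* (ENSMUSG00000029304, 104435118 to 104441050 on the plus strand of chromosome 5) had the widest range of the members and its highest mean level at 3 dpi. The levels were 4.10, 6.03 and 5.32 at 1 dpi, 7.84, 5.63 and 7.08 at 2 dpi and 8.76, 7.71, 8.14 and 7.94 at 3 dpi. They were 7.05, 7.42 and 5.74 at 4 dpi, 7.37 at 5 dpi and 3.97, 3.38 and 5.07 at 6 dpi. The 3 dpi libraries lay above those of 1, 4 and 6 dpi and overlapped 2 dpi through its replicate 1, while 1 and 6 dpi overlapped at the low end. The mean level was 8.14 ± 0.45 (SD, n = 4) at 3 dpi and 4.14 ± 0.86 (n = 3) at 6 dpi, a difference of 3.99 or 15.9-fold.

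Macrophages are another known source of *Spp1*, so 12 macrophage markers were summed in each library. The sum was 84.1, 56.4, 351 and 328 CPM on raw library sizes in replicates 1 to 4 of 3 dpi, 110 at 5 dpi, 14.9 to 49.0 at 1, 2 and 4 dpi and 28.4 to 49.7 at 6 dpi. At 3 dpi *Spp1* stood at 464, 184, 318 and 273 CPM in the same order. At 2 dpi replicate 1 held 240 CPM of *Spp1* beside 23.3 CPM of macrophage markers. Without the 3 libraries of highest marker sum, the *Spp1* level at 3 dpi exceeded that at 6 dpi by 4.09, against 3.99 with them. Over 17 libraries, which share their days and depth, the log2 levels of *Spp1* and of the marker sum had Pearson's r 0.45 and Spearman's rho 0.46, and r was 0.51 without the 2 libraries farthest from the median. After the mean of each day was removed, r was -0.26 over 16 libraries. *Cd68*, *Lyz2*, *Csf1r*, *C1qb*, *Cd14* and *Tyrobp* were detected in every library, and no macrophage marker was at 0 in all. The part of macrophage RNA in the *Spp1* levels was not tested.

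*Ahsg* (ENSMUSG00000022868, 22891277 to 22899449 on the plus strand of chromosome 16) was present in every library with 45 to 3022 counts, and its levels were highest at 1 and 2 dpi. The levels were 5.15, 6.21 and 6.20 at 1 dpi, 7.05, 7.33 and 5.84 at 2 dpi and 4.89, 3.97, 5.08 and 2.90 at 3 dpi. They were 4.51, 4.39 and 3.36 at 4 dpi, 2.27 at 5 dpi and 3.04, 3.82 and 4.42 at 6 dpi. All 6 libraries of 1 and 2 dpi lay above all 11 later ones, and the later days overlapped each other except that 5 dpi lay lowest. The mean level was 6.74 ± 0.79 (SD, n = 3) at 2 dpi and 3.76 ± 0.69 (n = 3) at 6 dpi, a difference of 2.98 or 7.90-fold.

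Since *Ahsg* is known as a liver gene, 11 other liver genes were counted. *Alb*, *Ttr*, *Fgg*, *Serpina1a* and *Ambp*, which encode albumin, transthyretin and other abundant plasma proteins, had 0 counts in all 17 libraries. *Trf*, the transferrin gene, was detected throughout with 147 to 1037 counts, and the other 10 liver genes together summed to 0.249 to 5.15 CPM. *Ahsg* itself held 138, 160 and 57.7 CPM at 2 dpi, when those 10 genes summed to 1.12, 0.795 and 1.05 CPM. Their sum was highest at 6 dpi, at 3.89 to 5.15 CPM, when *Ahsg* held 7.49 to 21.6 CPM. Where the *Ahsg* transcripts came from was not tested.

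*Fetub*, the fetuin-B gene, is the next protein-coding gene beyond *Ahsg* on the plus strand of chromosome 16, at 22918334 to 22939778, with 18884 bases between them. Its levels were 5.08, 5.80 and 5.93 at 1 dpi, 6.36, 6.60 and 5.40 at 2 dpi and 4.92, 3.28, 4.63 and 3.64 at 3 dpi. They were 3.97, 3.86 and 4.40 at 4 dpi, 2.99 at 5 dpi and 2.76, 3.81 and 2.98 at 6 dpi. As with *Ahsg*, all libraries of 1 and 2 dpi lay above all later ones. *Fetub* was no member and was tested, though its list too was chosen with earlier results of these data known. It fell by 2.15 on the log2 scale (SE 0.32) from 1 to 2 dpi to 3 to 5 dpi. The adjusted p was 0.00019 by edgeR's quasi-likelihood test over 14030 genes, and the fall passed with each of 16 libraries left out in turn. The fall from 2 to 3 dpi was 1.94 (SE 0.37, adjusted p = 0.0086, edgeR). This step missed the threshold without replicate 2 of 2 dpi (adjusted p = 0.074, edgeR). It also did so with replicate number as a block (-1.76, adjusted p = 0.051, edgeR). *Hrg*, a further gene of this cystatin family on the same chromosome, at 22951072 to 22961656, had 0 counts in every library.

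**Figure D2:**
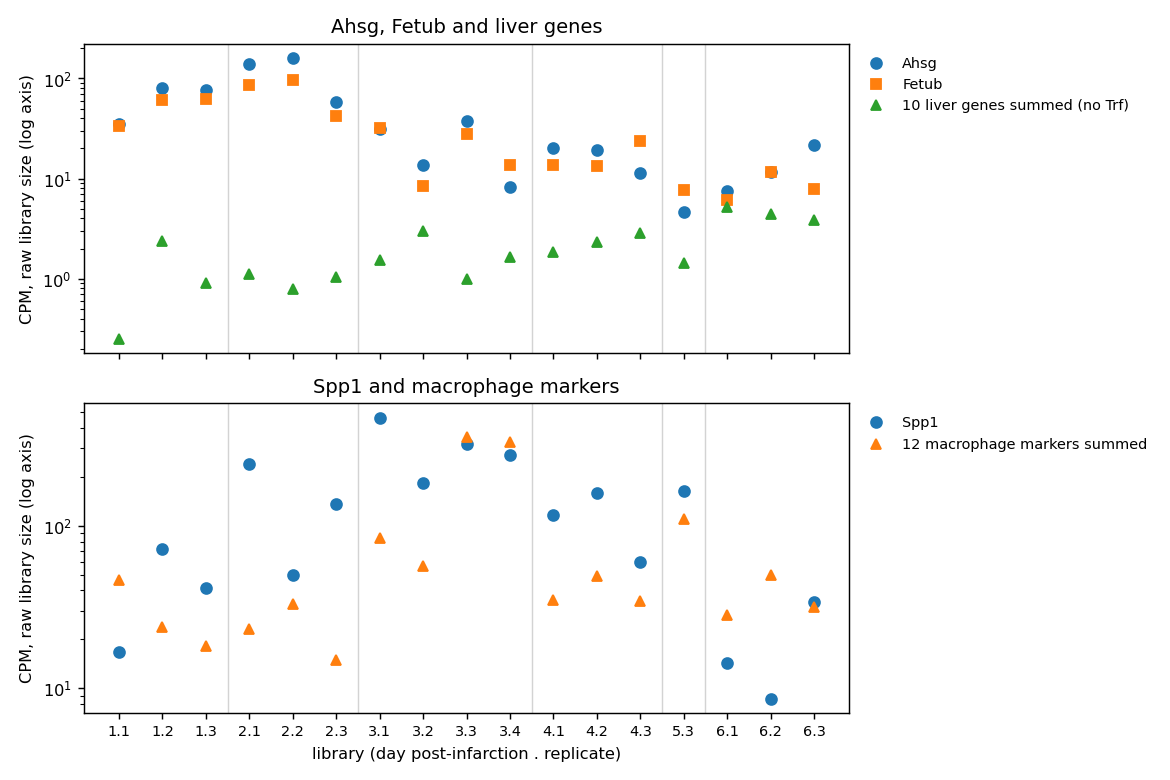
CPM on raw library sizes (y axes, log scale) in each of 17 libraries, named by day and replicate (x axis). Top, *Ahsg* and *Fetub* beside the sum of 10 liver genes without *Trf*, which stays at 0.249 to 5.15 CPM while *Ahsg* reaches 160; bottom, *Spp1* beside the sum of 12 macrophage markers, which is 351 and 328 in replicates 3 and 4 of 3 dpi, whereas *Spp1* is highest, at 464, in replicate 1.

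**Figure D3:**
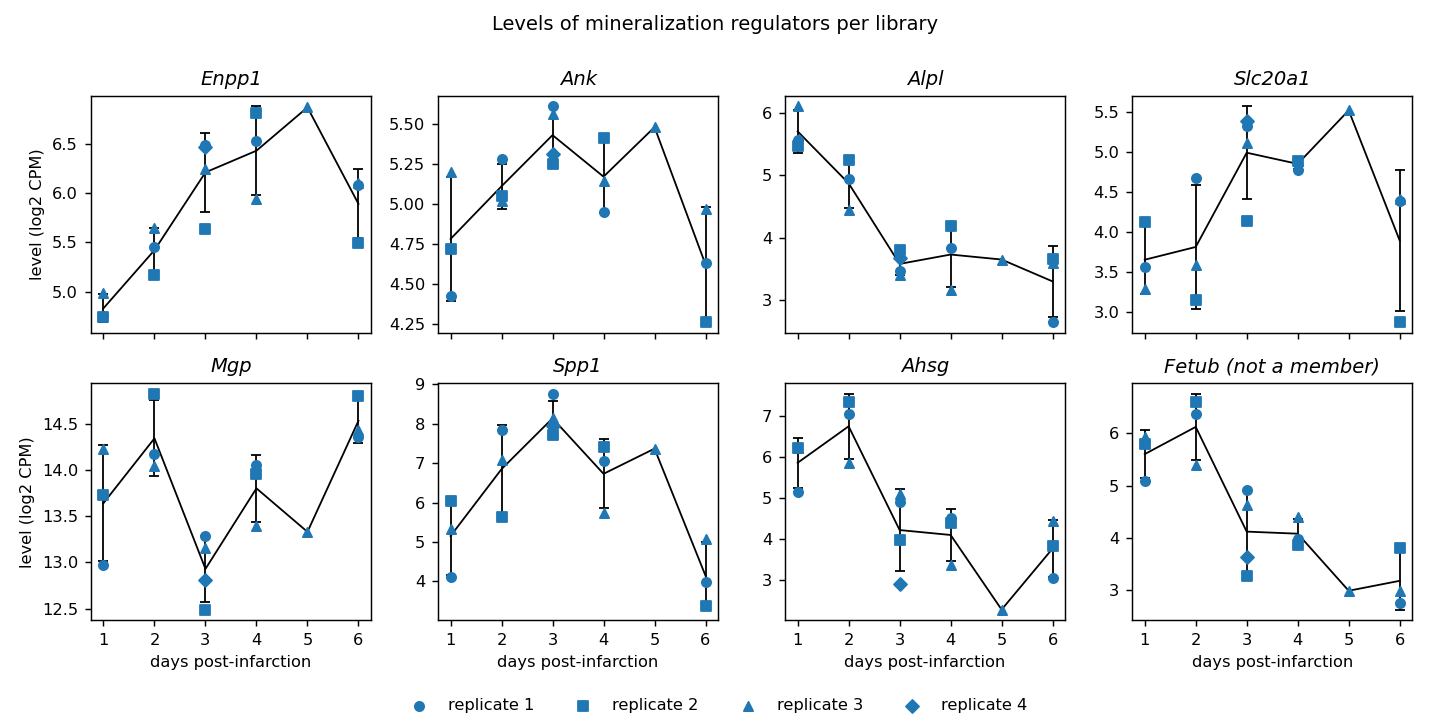
Levels in log2 CPM (y axes, a separate range for each gene) of the 7 members and of *Fetub* against days post-infarction (x axes). Symbols are libraries, shaped by replicate number, and lines join the day means with the SD between libraries as bars (none at 5 dpi, 1 library); *Ahsg*, *Fetub* and *Alpl* stand high at 1 and 2 dpi, *Spp1* peaks at 3 dpi with a mean of 8.14, and *Mgp* is lowest at 3 dpi.

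Members whose libraries were fully separate between days were counted, beside the share of all 14030 genes that behaved so in the same direction. From 1 to 2 dpi *Enpp1* was higher in every library (8.05% of all genes) and *Alpl* lower (7.03%). From 2 to 3 dpi *Ahsg*, *Mgp* and *Alpl* were lower in every library (8.95%) and none was higher in every library (9.69%). From 3 to 4 dpi *Mgp* was higher (8.64%) and *Spp1* lower (8.05%), and from 4 to 6 dpi *Mgp* was higher (11.3%) and *Spp1* and *Slc20a1* lower (10.3%). In 3 to 5 dpi against 1 to 2 dpi, *Ahsg* and *Alpl* were lower in every library (0.613%) and none was higher in every library (1.7%). In 6 dpi against 3 to 5 dpi, *Mgp* was higher (4.65%) and *Spp1* lower (4.27%). The members had been chosen on these levels, so nothing is read from the counts.

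Restricting the libraries to those with more Y-linked than *Xist* counts removed all libraries of 4 and 6 dpi and replicate 1 of 1 dpi. The window then held 3 dpi and the single 5 dpi library, with equal weight for each day. Each member's difference between this reduced window and 1 to 2 dpi kept its direction. The 3 and 5 dpi libraries are also part of the full window, so the kept directions are no separate support. The part of sex in the 4 and 6 dpi levels was not tested. *Ahsg* was lower by 2.77 in all libraries, a difference of -3.23 in the restricted ones, and *Alpl* differed by -1.63 and -1.71. *Enpp1* was higher by 1.38 and 1.40, *Slc20a1* by 1.39 and 1.5, *Spp1* by 1.41 and 1.49 and *Ank* by 0.41 and 0.42. *Mgp* differed by -0.64 in all libraries and by -1.03 in the restricted ones.

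The genes whose log2 levels ran most like each member over the 17 libraries are given as a description among 11850 genes with a mean of at least 20 counts, since all points share their days and library quality. For *Ahsg* these were *Irak3*, a brake on Toll-like receptor signalling, at r 0.92 (0.57 with day means removed), and *Fetub* at 0.91 (0.63). *Fetub*, the chromosomal neighbour, thus ranked 2 of 11850 genes. For *Spp1* they were *Smc4*, a condensin subunit, at 0.90 (0.69), the mitotic kinase gene *Nek2* at 0.89 (0.33) and *Pop4* at 0.89 (0.67). *Pop4* and *Smc4* were also among the closest to *Ank*, at 0.91 (0.75) and 0.88 (0.72), with *Mtfr1* at 0.89 (0.70).

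For *Mgp* the closest was *Pi16*, a marker of fibroblasts in unperturbed tissue, at 0.92 (0.73), followed by *Mcoln1* at 0.90 (0.66) and *Polr3gl* at 0.87 (0.68). For *Enpp1* they were the kinase gene *Plk2* at 0.94 (0.88), the receptor gene *Tyro3* at 0.93 (0.69) and *Prc1*, a gene of cytokinesis, at 0.92 (0.66). For *Alpl* they were *Eci1*, of fatty acid oxidation, at 0.93 (0.67), *Lcn2*, lipocalin-2, at 0.89 (0.61) and the growth factor gene *Fgf2* at 0.88 (0.47). For *Slc20a1* they were *Fbxo17* at 0.91 (0.89), *Akr1a1* at 0.91 (0.90) and *Nrbf2* at 0.89 (0.88), values that hardly moved when day means were removed. Spearman's rho for the pairs named ran from 0.81 to 0.94, and r without the 2 farthest libraries from 0.77 to 0.96. Among the members themselves, *Spp1* and *Ank* ran closest (r 0.87, rho 0.86, 0.80 without the 2 farthest libraries, 0.61 with day means removed). *Enpp1* and *Alpl* had r -0.74 (rho -0.61, -0.62 without the 2 farthest) but 0.02 with day means removed, so that the relation lay between days.

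Of 71 other mineralization genes in 7 lists, 48 passed the filter of at least 10 counts in at least 3 libraries, and 15 of these changed over the time course at an adjusted p under 0.05 by edgeR's quasi-likelihood test. Over all genes tested 15.0% did so. Genes of bone-forming and mineralizing cells were in part undetected. *Ibsp*, *Dmp1*, *Dspp* and *Mepe*, of bone and tooth matrix, and *Phospho1*, a phosphatase of matrix vesicles, had 0 counts in all libraries. *Sp7*, the osteoblast transcription factor gene, had counts in 1 library, with 14. The 9 osteoblast and chondrocyte markers summed to 0 to 4.11 CPM at 1 to 4 dpi, 9.88 at 5 dpi and 11.2 to 27.5 at 6 dpi, and the cartilage genes *Acan* and *Col2a1* among them reached 174 and 147 counts in a library. The osteocalcin genes *Bglap*, *Bglap2* and *Bglap3* reached 31, 42 and 13 counts in a library, but are near-identical copies whose counts are uncertain. Other genes of these lists were detected in every library: *Omd* of bone matrix with 9 to 322 counts, *Smpd3* of matrix vesicles with 31 to 487 and the transcription factor gene *Msx1* with 126 to 470. *Runx2*, which drives the osteoblast programme, was detected throughout with 69 to 378 counts and did not pass over the time course (adjusted p = 0.27, edgeR).

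Entering 3 to 5 dpi, 2 of the 48 rose (5.25% of all genes tested) and 2 fell (2.24%). The median log2 fold change was 0.10 over the 48 and -0.001 over all genes. *Tnfrsf11b*, which encodes osteoprotegerin, a decoy receptor that restrains osteoclasts, rose by 2.14 (SE 0.63, adjusted p = 0.041, edgeR), and *Sparc*, encoding the collagen-binding matrix protein osteonectin, by 0.73 (SE 0.21, adjusted p = 0.034, edgeR). *Fetub* fell as given above. *Twist2*, a repressor of osteoblast differentiation, fell by 0.86 (SE 0.22, adjusted p = 0.02, edgeR), and is named because the count is small, after its values were seen. *Sparc* missed the threshold without replicate 1 or 2 of 1 dpi, any replicate of 2 dpi or replicate 2 of 4 dpi (adjusted p 0.059 to 0.094, edgeR). *Tnfrsf11b* missed it without replicate 1 of 1 dpi, any replicate of 2 dpi, replicate 3 or 4 of 3 dpi or replicate 1 or 3 of 4 dpi (0.054 to 0.098), and *Twist2* without replicate 2 of 1 or of 2 dpi (0.054 and 0.058). Without the lone 5 dpi library *Sparc* was at 0.57 (adjusted p = 0.10, edgeR), and with every gene of at least 1 count at 0.72 (adjusted p = 0.12, edgeR). Without the 3 dpi libraries *Tnfrsf11b* (adjusted p = 0.25, edgeR) and *Twist2* (0.053) missed the threshold. Without the 3 libraries of highest macrophage marker sum *Tnfrsf11b* (adjusted p = 0.20, edgeR), *Sparc* (0.11) and *Twist2* (0.059) did, and in the libraries with more Y-linked counts *Sparc* (0.19) and *Tnfrsf11b* (0.073) did. With the replicate block *Tnfrsf11b* (adjusted p = 0.14, edgeR) and *Sparc* (0.071) missed it as well. Without replicate 2 of 3 dpi the count was 8 in place of 4, and without replicate 2 of 2 dpi it was 1. Over all genes 1601 and 780 were called in these fits, against 1050 in all libraries.

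Leaving that window, 6 genes were higher (6.25% of all genes tested) and 5 lower (5.29%) at 6 dpi, relative to 3 to 5 dpi. The median log2 fold change was -0.02 over the 48 and -0.009 over all genes. The vitamin K-dependent protein gene *Gas6* rose by 1.09 (SE 0.22, adjusted p = 0.0045, edgeR), and *Vkorc1*, which regenerates the vitamin K that MGP and GAS6 need, by 1.69 (SE 0.48, adjusted p = 0.028, edgeR), while its paralogue *Vkorc1l1* fell by 1.00 (SE 0.24, adjusted p = 0.012, edgeR). *Stc2*, a stanniocalcin hormone gene, rose by 1.23, *Anxa6*, an annexin of matrix vesicles, by 0.85, and *Fam20a*, partner of the kinase that phosphorylates osteopontin, by 0.79. *Ppa1*, which cleaves pyrophosphate inside the cell, fell by 1.85 (SE 0.39, adjusted p = 0.0062, edgeR). *Vkorc1* and *Itga5* are named after their values were seen.

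Receptors of osteopontin moved in both directions at that step. *Itgb5*, a partner of integrin alpha v, rose by 1.17 (SE 0.22, adjusted p = 0.003, edgeR), whereas *Cd44*, a hyaluronan and osteopontin receptor, fell by 1.53 (SE 0.35, adjusted p = 0.0095, edgeR) and *Itga5* by 1.21 (SE 0.36, adjusted p = 0.037, edgeR). *Mmp3*, a protease that cuts osteopontin, fell by 2.20 (SE 0.57, adjusted p = 0.019, edgeR). Of these 11 genes *Gas6* and *Itgb5* passed with each of 16 libraries left out, and the other 9 missed the threshold without replicate 1 or without replicate 2 of 6 dpi (adjusted p 0.051 to 0.20, edgeR), when the count was 2. *Anxa6* missed it also without replicate 1 or 4 of 3 dpi or replicate 2 of 4 dpi (adjusted p 0.05 to 0.061, edgeR). *Itga5* missed it also without replicate 1 or 2 of 4 dpi or replicate 3 of 6 dpi (0.059 to 0.14 over all 5 fits that lost it). Macrophage markers were lower at 6 dpi than at 3 and 5 dpi, as given above, and cardiomyocyte markers were higher at 6 dpi than on any other day. The part of either in these changes was not tested. Without the 3 libraries of highest macrophage marker sum 8 genes passed, 3 higher and 5 lower, and *Vkorc1* (adjusted p = 0.21, edgeR), *Anxa6* (0.10) and *Fam20a* (0.085) no longer did. *Vkorc1* also missed the threshold without the lone 5 dpi library (1.19, adjusted p = 0.081, edgeR), where its level was 5.67 against a mean of 7.44 at 4 dpi. Without the 3 dpi libraries 7 genes passed, and *Vkorc1l1*, *Fam20a*, *Itga5* and *Anxa6* did not (adjusted p 0.05 to 0.075, edgeR).

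From 2 to 3 dpi *Fetub* and *Omd*, which encodes the keratan sulphate proteoglycan osteomodulin, fell (1.12% of all genes tested), *Omd* by 2.08 (SE 0.56, adjusted p = 0.047, edgeR). By edgeR 0 of the 48 rose at that step (1.82% of all genes), with 4 higher at an unadjusted p under 0.05 and 2 called higher by DESeq2. From 3 to 4 dpi *Itgav*, the alpha v chain of several osteopontin receptors, rose by 1.12 (SE 0.27, adjusted p = 0.032, edgeR), against 1.63% of all genes. By edgeR 0 of the 48 fell at that step (1.08%), with 5 lower at an unadjusted p under 0.05 and 2 called lower by DESeq2. Both are named after their values were seen. *Omd* passed in 4 of 16 fits with a library left out (adjusted p up to 0.18, edgeR), failing without any one library of 1, 3 or 4 dpi or replicate 2 or 3 of 2 dpi. *Itgav* failed without replicate 3 or 4 of 3 dpi or replicate 1 or 2 of 4 dpi (0.068 to 0.12). Without the 3 libraries of highest macrophage marker sum neither passed (adjusted p = 0.14 for *Omd* and 0.13 for *Itgav*, edgeR).

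The counts by list are beside the 15.0% of all genes tested that changed over the time course. In secreted inhibitors and hormones 4 of 6 tested genes did (*Fetub*, *Stc2*, *Gas6* and *Tnfrsf11b*), and in osteopontin receptors and modifying enzymes 4 of 11 (*Itgb5*, *Mmp3*, *Cd44* and *Itgb3*). In phosphate and pyrophosphate handling 2 of 8 did (*Ppa1* and *Enpp3*), in the vitamin K cycle and secretory kinases 2 of 7 (*Vkorc1l1* and *Fam20a*), and 1 each in matrix vesicle genes (*Anxa6*, of 4), bone matrix proteins (*Sparc*, of 5) and osteogenic transcription factors (*Twist1*, of 7). *Slc20a2*, the other phosphate importer of this class, had an adjusted p of 0.78 (edgeR) over the course, and *Abcc6*, whose loss causes ectopic calcification, had 1 count in 1 library. *Fetub*, *Itgb5*, *Mmp3*, *Sparc* and *Stc2* passed over the course with each of 16 libraries left out. In the same 16 fits *Itgb3* and *Anxa6* passed in 4 each, *Tnfrsf11b* in 5 and *Enpp3* in 6. *Cd44*, *Fam20a*, *Vkorc1l1*, *Ppa1*, *Twist1* and *Gas6* passed in 12 to 15. Without replicate 1 or 2 of 6 dpi 7 genes passed in place of 15.

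**Figure D4:**
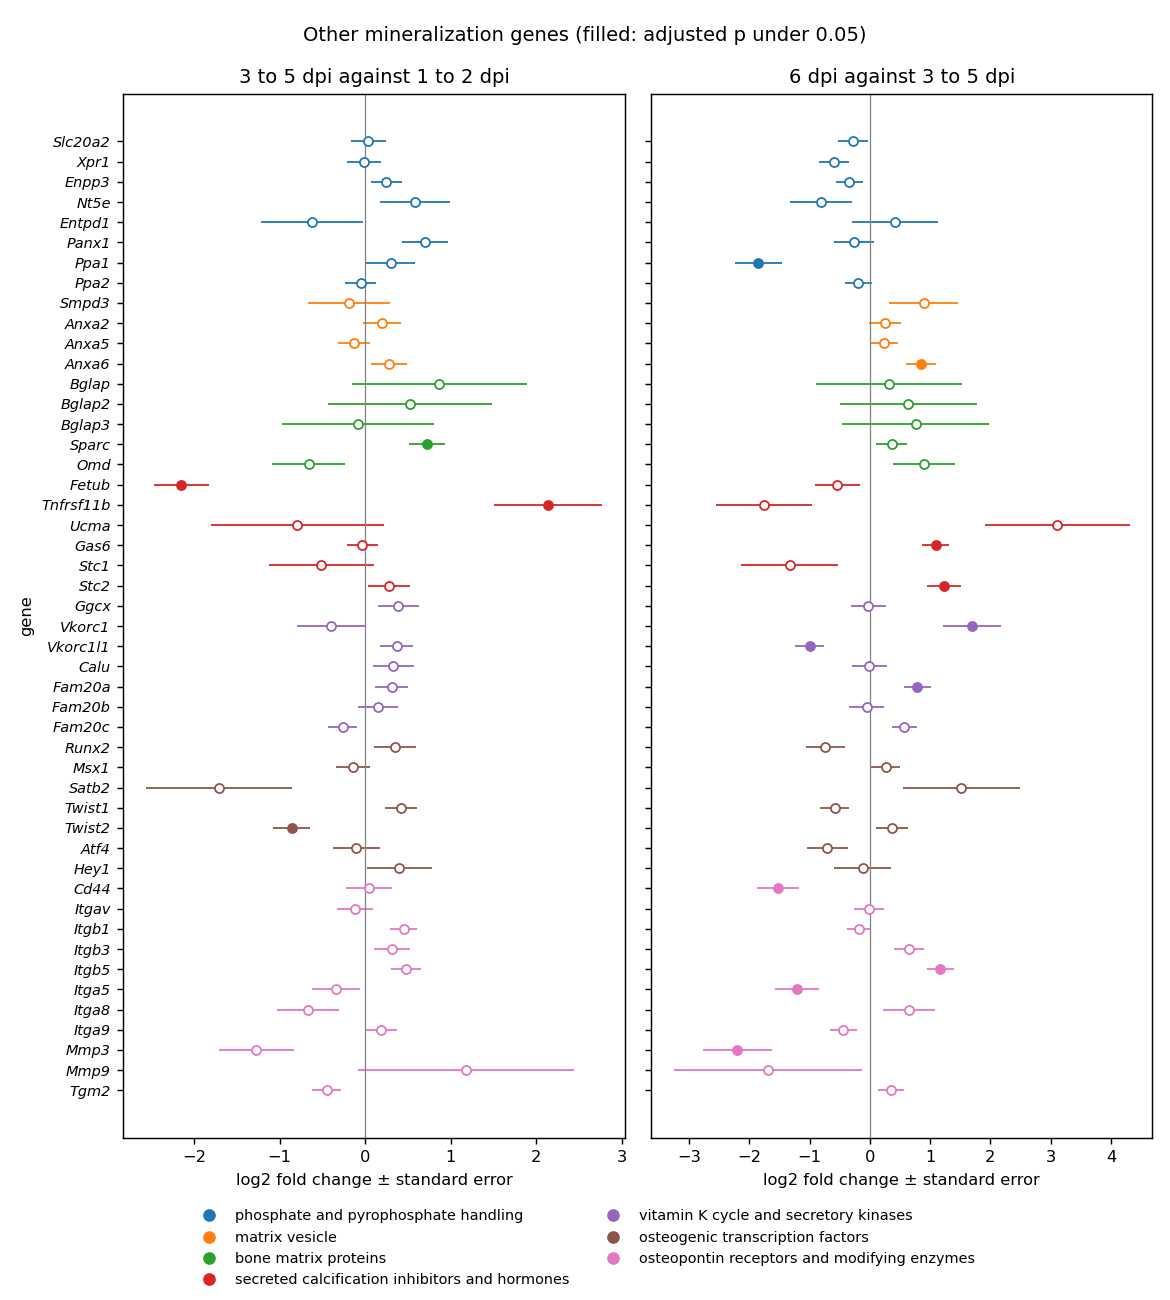
Log2 fold change with its standard error (x axes) of the 48 tested mineralization genes outside the members (y axis), coloured by list, for 3 to 5 against 1 to 2 dpi (left) and 6 against 3 to 5 dpi (right). Filled points passed an adjusted p of 0.05 by edgeR, 4 on the left, with *Fetub* at -2.15, and 11 on the right, from *Mmp3* at -2.20 to *Vkorc1* at 1.69.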

How the data were processed

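CFs of infarcted hearts were profiled in 17 libraries by MARS-seq adapted to bulk RNA, which reads 3′ ends. The authors demultiplexed with bcl2fastq (1.2.4), aligned to mm10 with STAR and counted reads per gene with featureCounts. The deposited values are counts, not normalized, and no collapse of PCR copies is named. The members, lists, markers and alternatives were chosen with earlier results of these data known.

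Counts were read with pandas (2.3.3) in Python (3.11.15). In R (4.3.3), edgeR (4.0.16) fitted day as a factor of 6 levels to all 17 libraries after TMM normalization, without a replicate block, keeping the 14030 genes that reached 10 counts in 3 or more libraries. Its quasi-likelihood F-test was adjusted by Benjamini-Hochberg over all of them, with a threshold of 0.05. The SE is the log2 fold change divided by the square root of F. The mean of 3, 4 and 5 dpi was set against that of 1 and 2 dpi and against 6 dpi. The replicate number of the 5 dpi library, 3 in its title and 1 in its description, was taken from the title. Libraries of a day are labelled as replicates, and p-values measure the spread between them.

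Alternatives were DESeq2 (1.42.0), its size factors, every gene with at least 1 count, the replicate block, leaving out each library, the 5 dpi or the 3 dpi libraries, and, for levels, raw library sizes and a prior count of 0.5. Added after seeing the data were fits on libraries whose Y-linked counts exceeded *Xist*, which held none of 4 or 6 dpi, and without the 3 libraries of highest macrophage marker level. Genes named are the members, the 3 genes closest to each by Pearson correlation (of which 1 is not reported here), and, per list, up to 4 genes with an adjusted p under 0.05 over the course and a mean of at least 20 counts, by largest change. Positions are from GENCODE on GRCm38, promoter windows from RefSeq on GRCm38.p6, and figures were drawn with matplotlib (3.10.9).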

Additional observations from a re-analysis of the deposited data

Results flagged for a closer look

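At 3 dpi, the only day with 4 libraries, 22 levels (the 7 members and 15 named genes) were examined for a library far from the others by Dixon's ratio of gap to range, read against its 95% critical value. Chance alone would give about 1.1 of 22. No member was flagged. *Sparc* stood at 13.24 log2 CPM in replicate 2, against 12.51 to 12.62 in the other 3 libraries (ratio 0.851). *Mmp3* stood at 3.10 in the same library, against 6.71 to 7.10 (ratio 0.901). No explanation was tested.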

How the results depend on the processing

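Each member's difference between its highest and lowest day kept its sign and moved by less than 1 SD under 42 alternatives of scaling, prior count or library choice and 46 that left out 1 library. The days compared were picked from these same levels, and their libraries did not overlap for any member. Leaving out 1 library could therefore not reverse a sign, and the kept signs are no support for the differences. With 1 library left out, the differences ran from 2.62 to 3.43 for *Ahsg*, 3.61 to 4.46 for *Spp1*, 1.45 to 1.71 for *Mgp*, 1.40 to 1.84 for *Enpp1*, 0.63 to 0.99 for *Ank*, 2.08 to 2.59 for *Alpl* and 1.15 to 1.62 for *Slc20a1*.

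Counts of changed genes outside the members moved with the libraries used, as did those over all genes, and the cause was not tested. With 1 library left out, 1307 to 3466 of all genes were called over the course (2099 in all libraries). Out of the window 299 to 2937 were (1619 in all libraries). In the same fits the counts outside the members ran from 7 to 20 over the course (15 in all libraries), 1 to 8 into the window (4), 2 to 15 out of it (11), 0 to 3 for 3 against 2 dpi (2) and 0 to 5 for 4 against 3 dpi (1). Same-numbered replicates of different days did not deviate together (mean correlation 0.011 over 30 pairs, against -0.005 over 72 others). This gave no sign of pairing by number, but it cannot show how the samples were arranged, which the labels do not give. With the replicate block the counts were 9 over the course, 2 into the window, 9 out of it, 0 for 3 against 2 dpi and 0 for 4 against 3 dpi. Those counts of 0 by edgeR compare with 7 and 10 genes at an unadjusted p under 0.05, and with 5 and 5 called by DESeq2 without the block. With every gene with at least 1 count, 60 of the listed genes were tested, of which 7 passed from 2 to 3 dpi and 5 from 3 to 4 dpi. Out of the window, 7 passed without the 3 dpi libraries.

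Of the alternatives added after seeing the data, the libraries with more Y-linked counts gave 2 into the window. Leaving out the 3 libraries of highest macrophage marker level gave 1 into the window, 8 out of it, 1 for 3 against 2 dpi and 0 for 4 against 3 dpi (edgeR, 11 at an unadjusted p under 0.05). Among named genes, small changes into the window reversed sign without being called: *Ppa1* was at -0.04 and *Gas6* at 0.01 without those 3 libraries, *Gas6* ran from -0.12 to 0.11 (0.04 and 0.11 reversed) and *Cd44* from -0.08 to 0.14 (-0.08 and -0.01 reversed) with 1 library left out, and *Cd44* at -0.05 without the 5 dpi library. The lone 5 dpi library limits the comparisons with the window, and sex-linked expression that differs between days limits 4 against 3 dpi and both comparisons with the window.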
